A study of Mus musculus with 16 samples.

Results

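The class I antigen presentation transcripts H2-D1, H2-T23, H2-T24 and B2m were higher at ZT15 than at ZT3 in CD11c-low eosinophils of the mouse duodenum, and Cd74, the invariant chain transcript of the class II pathway, was lower. These 5 genes are described here. They were chosen by name with the calls of the deposited tables known, to set class I heavy chains and their light chain beside a class II gene, so their directions and calls below are a description and were not tested again. All 5 were found among the 1340 genes listed for CD11c-low cells, and H2-D1 and H2-T23 also among the 172 listed for CD11c-high cells. Together the tables list 1413 different genes.

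Eosinophils were sorted from duodenal lamina propria, the connective tissue under the gut epithelium, into cells with high or low CD11c, an integrin chain on the cell surface. Collection was at ZT3, labelled AM, and ZT15, labelled PM (zeitgeber time counts the hours since the lights came on), with 4 libraries in each of the 4 groups. A library was made from 1000 cells. No agent or allele is named for any group, neither strain nor age is stated in the labels, and nothing in the labels ties libraries to separate mice, so the deposited errors may cover technical spread only. The tables are the authors' own comparison of ZT15 with ZT3 within each subset and hold no value of a single library, so the level of a gene is given below as its mean over libraries. Every fold change is the authors' shrunken log2 value (pulled towards 0 where the data are noisy), followed by ± its posterior standard deviation. The s-value estimates which fraction of the signs is wrong in the list down to that gene, and genes up to an s-value of 0.05 are listed. Of 13 eosinophil markers, 4 were listed in CD11c-low cells, beside 5.78% of all annotated protein-coding genes. The mean counts of these markers after normalisation were 4887 for Alox15, 2776 for Adgre1, 2381 for Csf2rb and 1633 for Siglecf in the authors' deposited table. They were listed because their own daily change was called: Csf2rb was at 0.33 ± 0.16, Alox15 at 0.26 ± 0.14, Siglecf at 0.23 ± 0.13 and Adgre1 at -0.29 ± 0.14 in log2 in that authors' deposited table. Being listed is therefore no check of the sorted cell type, and the part of these shifts in the results below was not tested. None of the 13 was among the 172 genes listed in CD11c-high cells, and the levels of unlisted genes were not analysed here.

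Class I molecules consist of a heavy chain that holds a peptide from inside the cell and of beta-2 microglobulin, the light chain. Classical heavy chains such as the one encoded by H2-D1 show peptides to CD8 T cells. The product of H2-T23, Qa-1, is a non-classical heavy chain seen by NK cell receptors and some T cells, and H2-T24 encodes another non-classical heavy chain. B2m encodes the light chain that the heavy chains need to reach the surface. Cd74 belongs to the other pathway: the invariant chain escorts class II molecules, which carry peptides from endosomes to CD4 T cells, and blocks their groove until it is cut away.

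Class I promoters are known for a compact control region with a kB site, an interferon-responsive element bound by IRF factors, and an X and Y box module used by NLRC5 and its partners. Stretches upstream of the RefSeq transcript start are shown for H2-D1, H2-T23 and B2m, each higher at ZT15 in CD11c-low cells, because of their motif matches there. The sizes of the changes differ between these genes, and a part of the motifs in them was not tested. H2-T24 and Cd74 had no entry in the promoter table. Sequences are from RefSeq on GRCm38.p6, which is not the build named in the submitters' processing notes (GRCm39), and are given 5′ to 3′ on the gene's strand. Capitals mark matches on either strand to GGG and CC with any 5 bases between them (kB), AANNGAAA (IRF core), TGACG (X2 box core) and CCAAT (Y box core). The H2-D1 stretches lie on the + strand at chr17:35262923-35262951, chr17:35262993-35263022 and chr17:35263028-35263057, the H2-T23 stretch on the - strand at chr17:36032737-36032766, and the B2m stretch on the + strand at chr2:122147550-122147638. GENCODE M21 starts longer H2-D1 and H2-T23 transcripts further upstream, so that their stretches fall in the first exon of those transcripts.
H2-D1, kB and IRF core: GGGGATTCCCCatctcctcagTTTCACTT
H2-D1, X2 core and first Y core: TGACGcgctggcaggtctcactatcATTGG
H2-D1, second Y core: gagattccaggagCCAATcagcgtcgccgc
H2-T23, Y core: agttttctaaaagCCAATcagcgacgcaga
B2m, IRF core to Y core: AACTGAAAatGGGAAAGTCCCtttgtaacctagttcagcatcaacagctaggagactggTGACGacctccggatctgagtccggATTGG

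Within 250 bases upstream of the start, H2-D1 and B2m matched all 4 motifs and H2-T23 matched 2 of them, the IRF core and the Y box core. Among 27025 promoters of the same length, one per gene, 45.3% held the kB letters, 21.7% the IRF core, 17.6% the X2 core and 34.2% the Y box core. All 4 were found together in 137 promoters (0.507%). The X2 core and the next Y box core, read on the opposite strand as ATTGG, were 20 bases apart in both H2-D1 and B2m. The order of the first 2 motifs differed between them: in H2-D1 the kB letters came 10 bases before the IRF core, and in B2m the IRF core came 2 bases before the kB letters. H2-D1 and H2-T23 shared a run of 12 bases around the Y box core, AGCCAATCAGCG, which was the longest run common to their upstream windows. The longest run that B2m shared was shorter, with 8 bases common to H2-D1 and 7 to H2-T23, and lay outside the stretches printed above. Overlapping kB matches are drawn as 1 block in the map of motif positions. A match describes letters only, and binding at these letters was not measured here.

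**Figure D1:**
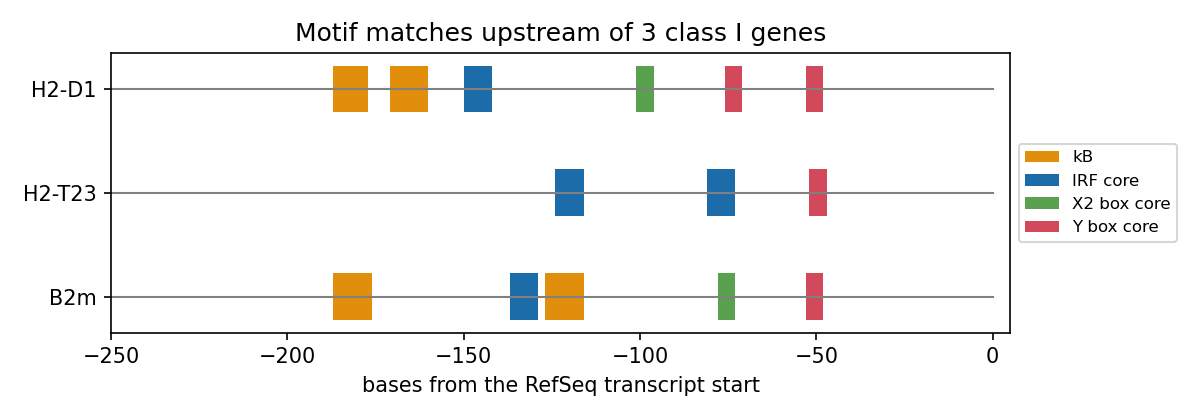
Motif matches in the 250 bases upstream of the RefSeq transcript start of H2-D1, H2-T23 and B2m. The horizontal axis gives bases from the start, and coloured blocks are matches on either strand to the kB, IRF core, X2 box core and Y box core letters. H2-D1 and B2m carry all 4 kinds of motif and H2-T23 carries 2.

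H2-D1 showed the clearest change of the 5 genes. In CD11c-low cells its log2 fold change was 0.72 ± 0.14, a fold of 1.65, at a mean normalised count of 8589 and an s-value of 1.35e-08 in the authors' deposited table (ENSMUSG00000073411.13). This was the 19th smallest of the 1340 s-values in the authors' deposited table and the 13th smallest among the 700 genes that were higher at ZT15. With immunoglobulin variable segments left out, 22 of 692 higher genes had a change at least as large in the authors' deposited table. If all 4 libraries of each time entered the mean equally, the deposited mean and fold correspond to about 6475 normalised counts at ZT3 and 10702 at ZT15. Because the fold is shrunken, such levels are drawn towards each other and are not group means. In CD11c-high cells H2-D1 was also higher, by 0.28 ± 0.18 or 1.21-fold, at a mean normalised count of 3658 and an s-value of 0.0147 in the authors' deposited table. The corresponding levels there are about 3304 and 4012. The 95% interval, taken from the posterior SD as if normal, ran from 0.45 to 1.00 in CD11c-low cells and from -0.08 to 0.64 in CD11c-high cells.

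H2-T23 was a low transcript with a change of similar size in both subsets and wide errors. Its log2 fold change was 0.68 ± 0.32 (1.61-fold, s-value 0.00299, mean normalised count 170) in the authors' deposited table of CD11c-low cells (ENSMUSG00000067212.9). In CD11c-high cells it was 0.83 ± 0.51 (1.78-fold, s-value 0.00516, mean normalised count 119) in the authors' deposited table. The 95% interval was 0.06 to 1.31 in CD11c-low cells and -0.17 to 1.84 in CD11c-high cells. By size, H2-T23 was number 3 among 87 higher genes of the CD11c-high table and number 33 among 692 of the CD11c-low table, immunoglobulin variable segments left out. Its posterior SD was among the larger ones, with 1203 of 1340 genes at or below it in CD11c-low cells and 160 of 172 in CD11c-high cells.

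H2-T24, the next heavy chain gene beside H2-T23 in the annotation, was listed in CD11c-low cells only. Its log2 fold change was 0.37 ± 0.24, a fold of 1.29, with an s-value of 0.0188 and a mean of 313 normalised counts, in the authors' deposited table (ENSMUSG00000053835.18). The 95% interval ran from -0.10 to 0.83. The intervals of the 3 heavy chain genes overlapped in CD11c-low cells, so their changes are not separated by these errors.

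B2m had the smallest change of the 5 genes and one of the tightest errors. It rose by 0.16 ± 0.10 in log2, or 12.1%, at a mean normalised count of 9206 and an s-value of 0.0201 in the authors' deposited table of CD11c-low cells (ENSMUSG00000060802.9). Only 1 of the 1340 listed genes had a smaller posterior SD, and 688 of 692 higher genes changed at least as much, immunoglobulin variable segments left out. The 95% interval of B2m, -0.04 to 0.37, lay below that of H2-D1, 0.45 to 1.00, in the same libraries. As for H2-D1, the deposited mean and shrunken fold correspond to about 8682 normalised counts at ZT3 and 9730 at ZT15. The difference is 1049, against 4227 for H2-D1, and neither is divided by transcript length. The s-value of B2m was the nearest of the 5 genes to the limit of 0.05 for being listed. B2m was not listed in CD11c-high cells, where its change was not analysed here.

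Cd74 moved the other way. Its log2 fold change in CD11c-low cells was -0.49 ± 0.33, a fold of 0.711, with an s-value of 0.0187 and a mean of 878 normalised counts, in the authors' deposited table (ENSMUSG00000024610.16). The 95% interval reached from -1.13 to 0.15, and 1226 of 1340 genes had a posterior SD at or below that of Cd74. The upper end of this interval, 0.15, overlaps the lower end of the B2m interval, so these errors separate Cd74 from H2-D1 but not from B2m. Cd74 is abundant in B cells, macrophages and dendritic cells. In these sorted libraries, fewer cells of one type and less RNA per cell cannot be told apart. The marker counts that follow stand beside 5.78% of all annotated protein-coding genes that were listed for CD11c-low cells. Of 12 B and plasma cell markers, Bank1 (0.32 ± 0.15) and Ighm (0.24 ± 0.20) were listed, both higher at ZT15 by the authors' deposited table. Their mean normalised counts were 1145 and 522. Among 18 markers of macrophages, monocytes and dendritic cells, Cd68 was listed, at 0.52 ± 0.30 with a mean of 143 normalised counts, in the authors' deposited table. The class II chain genes H2-Aa, H2-Ab1 and H2-Eb1, which are on that list, were not listed. Adgre1, placed on the eosinophil list and not on that one, was lower, at -0.29 ± 0.14. Of the 4 listed eosinophil markers, 3 were higher. Immunoglobulin variable segments were listed in both directions, 8 higher and 6 lower. Gzma, a T and NK cell gene with a mean of 30.4 normalised counts and a fitted change too large to read as a fold, was the 1 listed gene of 12 T and NK cell markers in the authors' deposited table. Of 10 epithelial markers, Krt18 was listed, at -0.35 ± 0.24, in the authors' deposited table. These markers are given beside the result, and their part in it was not tested.

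**Figure D2:**
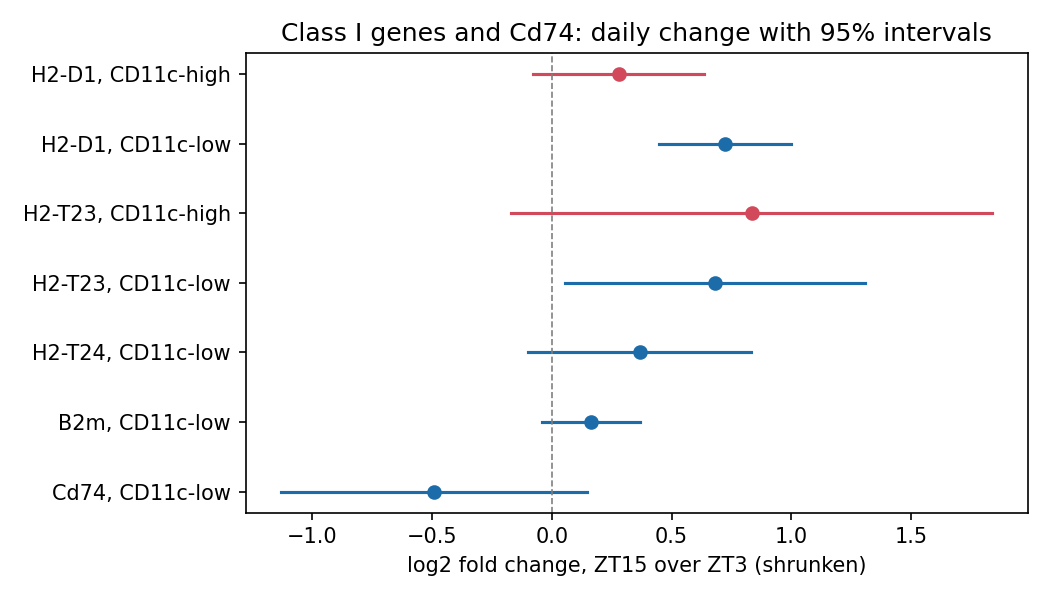
Log2 fold change at ZT15 over ZT3 of each listed gene in each subset, from the authors' deposited tables. Points are the shrunken estimates and lines the 95% intervals (normal, from the posterior SD), blue for CD11c-low and red for CD11c-high. The intervals of H2-D1 and H2-T23 in CD11c-low cells lie above 0, and those of the other 5 rows cross it.

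The calls of the 5 genes were read against the table they come from. In CD11c-low cells 4 of 5 were higher at ZT15, where 52.2% of all listed genes were higher. In CD11c-high cells 2 of 2 were higher, where 54.1% of listed genes were. Because the genes were picked with these directions known, nothing is read from those shares. At an s-value under 0.01, 2 of 5 (H2-D1 and H2-T23) passed in CD11c-low cells against 38.7% of the table, and 1 of 2 (H2-T23) in CD11c-high cells against 22.1%. The false sign rate of a gene itself, recovered from successive s-values, was under 0.05 for the same 2 of 5 in CD11c-low cells (52.7% of the table) and for 2 of 2 in CD11c-high cells (45.3%). It was 0.0516 for Cd74, 0.0518 for H2-T24 and 0.0555 for B2m, just past that limit. The 95% interval lay off 0 for 2 of 5 in CD11c-low cells (30.8% of the table) and for 0 of 2 in CD11c-high cells (11%). These intervals take the posterior as normal. For H2-T23 in CD11c-high cells the interval includes 0 while its own false sign rate was 0.0169, so these measures differ there. The median log2 fold change was 0.37 over the 5 genes and 0.21 over all 1340 listed genes, and for the 4 class I genes it was 0.52, beside 0.36 over the 700 higher genes. Among the 6 genes nearest in s-value to each of the 7 entries, 22 of 42 were higher at ZT15. The 42 are not all different: Cd74 and H2-T24, at ranks 724 and 727, count each other and the genes between them.

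**Figure D3:**
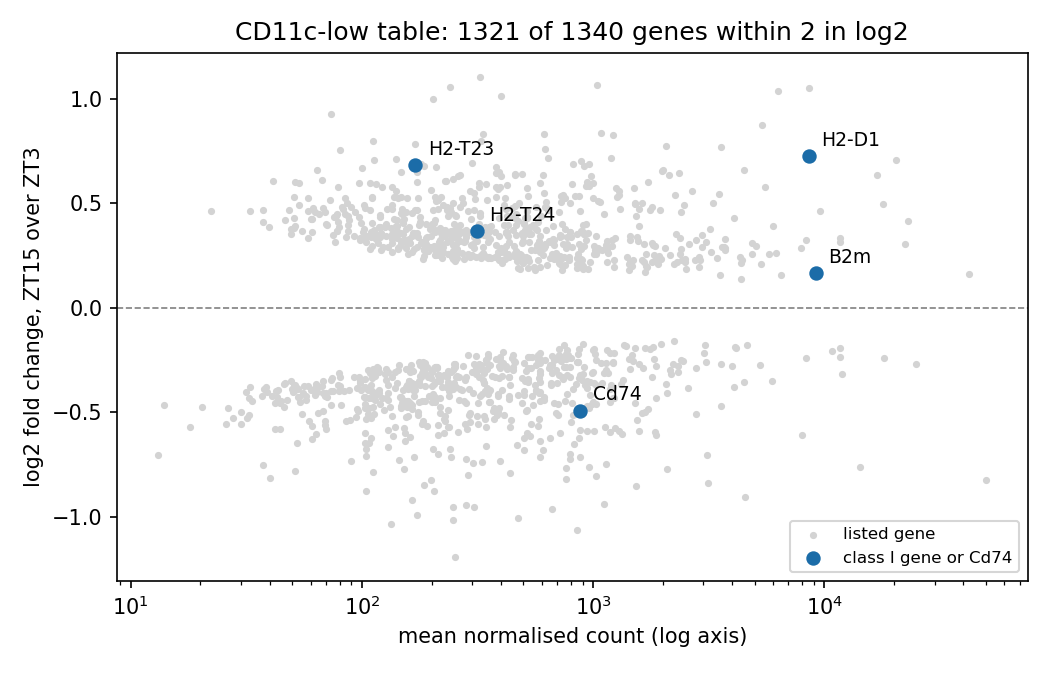
Log2 fold change at ZT15 over ZT3 against mean normalised count (log axis) in the authors' deposited table of CD11c-low cells. Grey points are the 1321 listed genes within 2 in log2 (19 lie outside), and blue points are the class I genes and Cd74. H2-D1 and B2m lie at counts of 8589 and 9206 with changes of 0.72 and 0.16.

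In this paragraph levels are compared between genes after division by transcript length, unlike the count differences given above for B2m and H2-D1. With the longest coding transcript in GENCODE M21, the mean normalised count per kilobase in CD11c-low cells was 10705 for B2m, 4086 for H2-D1, 623 for Cd74, 144 for H2-T24 and 116 for H2-T23. The 2 most abundant were thus B2m and H2-D1, but their order turned with the length used: with the median over the 3 annotated H2-D1 coding transcripts (406 bases, where the longest has 2102), H2-D1 came to 21154 and B2m stayed at 10705. The spread of these levels over libraries is not known. In CD11c-high cells the same measure was 1740 for H2-D1 and 80.5 for H2-T23, on a scale normalised separately.

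H2-D1 and H2-T23 were each higher at ZT15 in both subsets. How many of all genes listed for both subsets agree in direction was not counted, so nothing is read from this. Of the 172 CD11c-high genes 57.6% were also listed in CD11c-low cells, and of the 1340 CD11c-low genes 7.39% were also listed in CD11c-high cells; the shares here were 2 of 2 and 2 of 5. The change of H2-D1 was larger in CD11c-low cells by 0.44 ± 0.23 (95% interval -0.01 to 0.90), computed as if the tables were independent. That of H2-T23 differed by -0.15 ± 0.60 (-1.33 to 1.03), CD11c-low minus CD11c-high. Both intervals include 0, and the wide one of H2-T23 also includes a difference larger than either change. The sample titles repeat the same replicate numbers in both subsets, without saying whether these share mice. Shared mice could make both intervals wider or narrower. The estimates were shrunken separately. Of 97 shared genes other than immunoglobulin variable segments, 79 had the larger absolute change in CD11c-low cells, rising and falling genes together. A larger change in CD11c-low cells is thus common in these tables. Counting from the largest, H2-D1 had the 8th highest signed difference of the 97. Genes that fell more in CD11c-low cells have a negative difference and stand at the other end of that ranking. The mean normalised count of H2-D1 was 2.35 times as high in the CD11c-low as in the CD11c-high table, and that of H2-T23 1.44 times. Over the 97 genes the median ratio was 1.37 (quartiles 1.14 and 1.65), and 1 gene besides H2-D1 had a ratio as high or higher. The tables were normalised separately and the 97 genes are those called in both, so this ratio is not a test of a level difference between subsets.

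**Figure D4:**
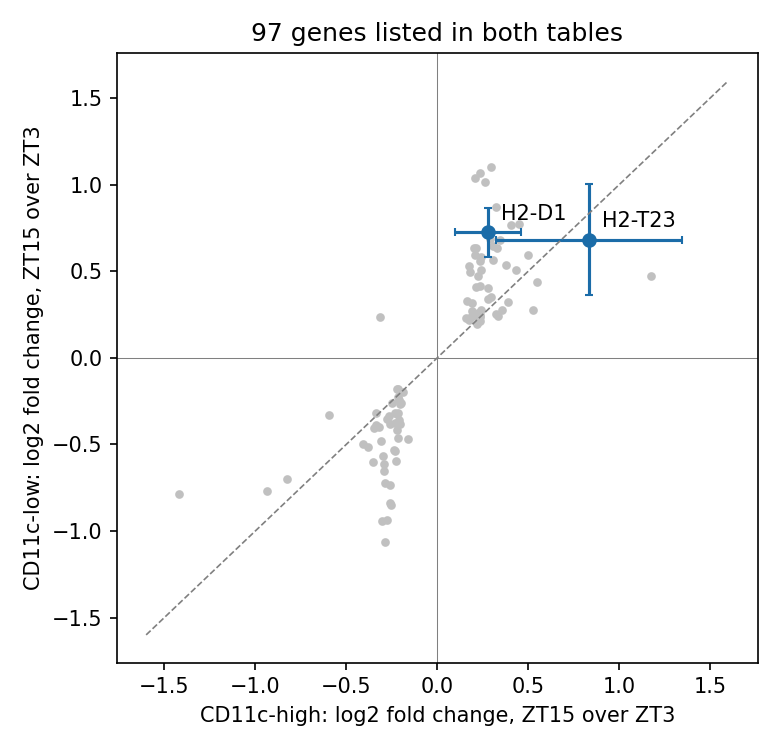
Log2 fold change at ZT15 over ZT3 in CD11c-low cells (vertical) against CD11c-high cells (horizontal) for the 97 genes listed in both of the authors' deposited tables, immunoglobulin variable segments left out. Grey points are genes, blue points with bars of 1 posterior SD are H2-D1 and H2-T23, and the dashed line marks equal change. H2-D1 lies above the line and H2-T23 lies within its bars of it.

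The listed genes of class I peptide supply and loading fell on both sides of 0 in CD11c-low cells, with intervals that all cross it. The counts of listed genes below stand beside 5.78% of all 21951 annotated protein-coding genes, expressed or not, that were listed for CD11c-low cells, and the lists were made with earlier results known. Of 20 heavy chain genes on the list, 3 were listed, all higher and all described above, and of 6 class I-like chains none was. Among 14 genes of peptide supply and loading, 1 was higher and 3 were lower. Psmb9, a subunit of the immunoproteasome that cuts peptides for class I, had a log2 fold change of 0.34 ± 0.23 in the authors' deposited table. Tap2, a subunit of the pump that carries those peptides into the endoplasmic reticulum, was at -0.25 ± 0.18 in the authors' deposited table. Tapbp, which encodes tapasin, the bridge between that pump and the empty heavy chain, was at -0.20 ± 0.17, and Calr, a chaperone of the loading complex, at -0.44 ± 0.25 in the authors' deposited table. Their own false sign rates were 0.0622 for Psmb9, 0.0778 for Tap2, 0.115 for Tapbp and 0.0297 for Calr, and the 10 unlisted genes of this list have no value here. Over the 8 listed genes of the class I lists (41 genes in all) 5 were higher and 3 lower, with a median log2 fold change of 0.25, beside 0.21 over all listed genes. In CD11c-high cells H2-D1 and H2-T23 were the only listed genes of those lists. Only 172 genes are listed there, against 1340 for CD11c-low cells, so the 5.78% does not apply to them.

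Of 12 transcription factors tied to class I genes, 3 were listed in CD11c-low cells. Irf1, an activator induced by interferon, was at 0.32 ± 0.19 and Nfkb1, an NF-kB subunit, at 0.35 ± 0.18 in the authors' deposited table. Irf2, which binds the same elements as Irf1 and can oppose it, was at -0.57 ± 0.26, with an s-value of 0.00238, in the authors' deposited table. Nlrc5, the class I transactivator, and the Rfx5, Rfxap and Rfxank subunits that bind X boxes were not listed.

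On the class II list, 3 of 19 genes were listed in CD11c-low cells, Cd74 among them. Marchf1, a ubiquitin ligase that removes class II from the surface, was at -0.51 ± 0.26, and Lgmn, an endosomal protease, at 0.31 ± 0.25 in the authors' deposited table. Of the 172 genes listed for CD11c-high cells, 1 is on this list. It is the lysosomal protease gene Ctsb, at 0.26 ± 0.21 in the authors' deposited table. A further list held 7 genes of class I receptors and related receptors. Of these, Pirb, an inhibitory receptor that binds class I, was at 0.26 ± 0.15 in the authors' deposited table of CD11c-low cells. Lilrb4a, on the list as a related receptor and not as one shown to bind class I, was at -0.54 ± 0.19 there.

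**Figure D5:**
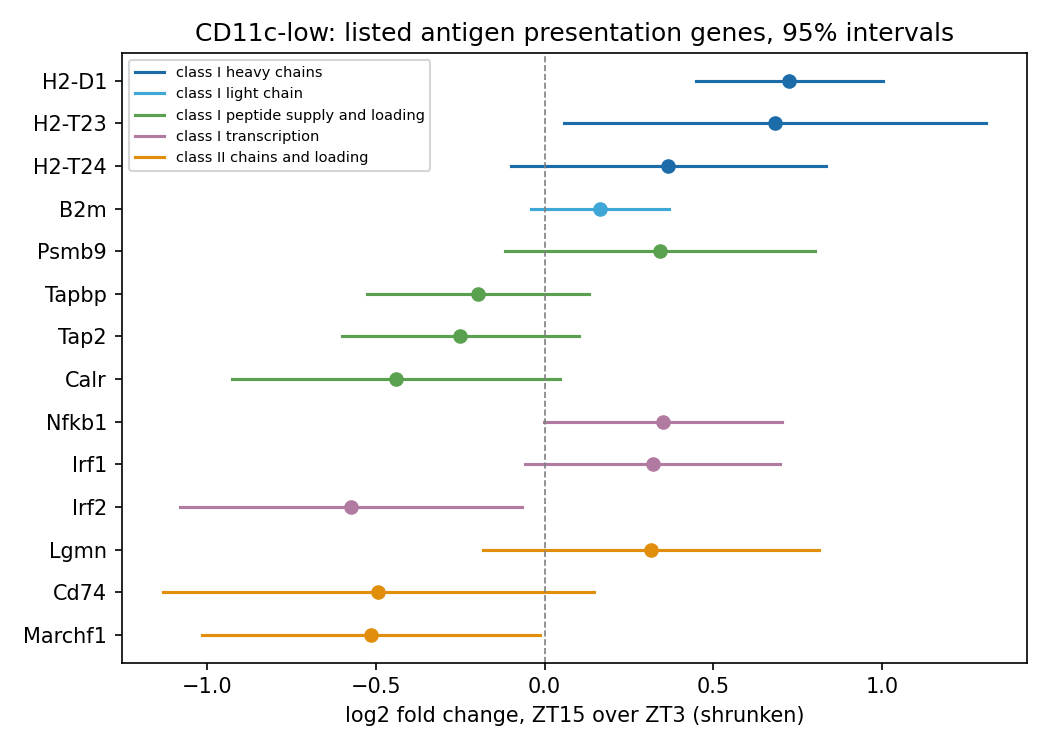
Log2 fold change at ZT15 over ZT3 of the listed genes of class I and class II presentation in CD11c-low cells, from the authors' deposited table. Points are shrunken estimates, lines are 95% intervals and colours are the gene lists. The estimates of the 3 heavy chain genes and B2m, chosen with their direction known, are above 0. Those of the 4 genes of peptide supply and loading fall on both sides. The intervals of H2-T24, B2m and these 4 genes cross 0.

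Class I heavy chain genes resemble each other, and the sources used here do not say how reads that fit several copies were counted. Of all 50-base windows of the coding transcripts in GENCODE M21, 13.9% of those of H2-D1 and 29.8% of those of H2-T23 also occurred in a transcript of another gene. For H2-D1 the largest shares were with H2-Q1 (6.68%) and H2-K1 (5.58%), and for H2-T23 with the pseudogene H2-T-ps (12.9%). The share was 3.17% for H2-T24 and 0 for B2m and Cd74. With windows of 31 bases the shares were 27.9% for H2-D1, 49% for H2-T23, 6.61% for H2-T24, 1.66% for Cd74 and 0 for B2m. The values of the heavy chain genes are uncertain in this respect, and these shares do not measure by how much a fold change would move. In the same annotation H2-T23 and H2-T24 overlap the span of an antisense gene, A930015D03Rik, and B2m overlaps that of Patl2, which is on the opposite strand. They share 0 exon bases with these genes, and neither is listed. Cd74 overlaps the microRNA gene Mir5107 on the same strand, with 12 shared exon bases (0.715% of its exon bases), and Mir5107 is not listed.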

How the data were processed

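The 16 libraries came from amplified cDNA of sorted eosinophils (Nextera XT kit), per the labels' protocols. The submitters' processing notes name STAR 2.7.10b, DESeq2 1.38.3 and GRCm39, with no role for each. Per the file headers, the authors deposited a mean normalised count (a signal: counts divided by size factors, averaged), a log2 fold change, its posterior SD and an s-value, which is no p-value or q-value. The depth of the libraries is unknown, and counting intervals are not given. The direction was taken from the tables' names. No column belongs to a library, so no model was fitted and nothing was tested. The genes, lists and alternatives were chosen with earlier results of these data known. Named are the 5 genes and the listed members of the class I, class II and marker lists. False sign rates were recovered from s-values, a step tested on simulated data. Python 3.11.15, pandas 2.3.3, NumPy 2.4.6 and matplotlib 3.10.9 were used. Transcripts and gene order came from GENCODE M21 (GRCm38), matched on gene identifiers for all 5 genes, and upstream sequences from RefSeq, matched on symbols for 3 of 5.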

Additional observations from a re-analysis of the deposited data

How the results depend on the processing

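The direction of each of the 5 genes was as deposited under every call rule tried, since those rules change the call and not the estimate. In CD11c-low cells 5 genes were called as deposited and 2 (H2-D1 and H2-T23) at an s-value under 0.01, 2 at a gene-wise false sign rate under 0.05 and 2 with a 95% interval off 0. In CD11c-high cells the 2 calls became 1 at an s-value under 0.01 and 0 with a 95% interval (taken as normal) off 0. Both stayed called at a gene-wise false sign rate under 0.05. The median over all listed genes stayed within 0.18 to 0.19 (CD11c-high) and 0.21 to 0.22 (CD11c-low) with a minimum count of 50, without immunoglobulin variable segments or without class I heavy chains. Another transcript length and window length were added after seeing the data. The log2 ratio of counts per kilobase of B2m over H2-D1 was 1.39 with the longest transcript and -0.98 with the median length, because 2 of the 3 H2-D1 transcripts are short. Shared windows of 31 bases rose to 27.9% for H2-D1 and 49% for H2-T23. No paired analysis was possible because no column belongs to a library, and for the same reason no replicate could be left out. Single libraries and their depth were not analysed here, so a result resting on 1 library would not be seen.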

Other observations

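The spacing seen upstream of H2-D1 and B2m was looked up in all promoters, a search chosen after seeing it. TGACG followed after 20 bases by ATTGG, on either strand, occurred in 22 of 27025 upstream windows (0.0814%). These included H2-K1 and H2-M3 besides H2-D1 and B2m, so that 3 of the 14 class I heavy chain genes with a promoter entry had it. Of the 21 that matched an annotated gene by symbol, 4 were listed in CD11c-low cells, where 5.78% of annotated protein-coding genes were listed. All 4 were higher at ZT15, as were 52.2% of listed genes, in the authors' deposited table: H2-D1, B2m (0.16 ± 0.10), the histone chaperone gene Nasp (0.47 ± 0.29) and the RNA polymerase I subunit gene Polr1h (0.22 ± 0.19), which lies in the same segment of chromosome 17 as the heavy chains. The number is too small for any statement on the pattern, and the first 2 genes were chosen with their direction known.

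Genes that neighbour the heavy chains on chromosome 17 moved in both directions. From H2-K1 to H2-M2 in GENCODE M21 there are 170 protein-coding genes besides H2-D1, H2-T23 and H2-T24. Of these, 10 (5.88%) were listed in CD11c-low cells, 5 higher and 5 lower, beside 5.78% of 21951 protein-coding genes of the whole annotation and 52.2% higher among all listed genes. The 170 still hold other class I heavy chain genes such as H2-K1, and Psmb9 and Tap2, described above, are among the 10. Ddx39b, an RNA helicase gene and the neighbour of H2-D1 in that order, was at 0.40 ± 0.18 in the authors' deposited table. Gpsm3, a regulator of G protein signalling, had the lowest value of the segment, -0.99 ± 0.25, in the authors' deposited table.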
